A study of Mus musculus with 6 samples.

Results

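Chat, Slc18a3, Slc5a7, Lhx8 and Gbx1 are genes of acetylcholine production and of cholinergic neurons of the basal forebrain. They were chosen by gene symbol, with earlier results of the comparison between the ages known, and are 5 of the 18228 genes in the count table. All 5 were among the 14702 genes with enough reads to be tested. RNA was sequenced from hypothalamus tissue of 3 aged mice (22 months old) and 3 young mice (12 weeks old), 1 library per mouse. They were picked at random from 5 behaviourally tested animals per age, in a search for genes that go with cognitive decline. All mice had free food and water and a regular light cycle. The labels give no strain, genotype, sex, litter or batch.

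Cholinergic neurons make acetylcholine in the cytoplasm from choline and acetyl-CoA, load it into synaptic vesicles, release it, and take choline back up after the transmitter has been split outside the cell. In the forebrain these neurons sit mainly in the septum, diagonal band, substantia innominata and striatum, and the first of these groups border the preoptic and anterior hypothalamus. They descend from the ventral telencephalon of the embryo, where LIM-homeodomain factors set their fate, and basal forebrain neurons depend on neurotrophins for trophic support.

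Chat encodes choline acetyltransferase, the enzyme that makes acetylcholine, and Slc18a3 encodes the vesicular acetylcholine transporter. These genes form the cholinergic gene locus on mouse chromosome 14, minus strand. In the GENCODE M21 annotation of GRCm38, Slc18a3 is 1 exon of 2413 bases that lies wholly within intron 1 of the main Chat transcript, on the same strand, and shares 0 exonic bases with any of the 8 annotated Chat transcripts. The RefSeq starts of the genes are 1059 bases apart. The bases upstream of both starts are printed because the levels of these genes moved together in every library, as described further on. Sequences are from RefSeq on GRCm38.p6, a different build from the GRCm39 named for the deposited tables, and run 5′ to 3′ on the minus strand. Capitals mark matches to CCAAT and CACGTG in the Chat sequence and to GGGCGG, read on the opposite strand as CCGCCC, in the Slc18a3 sequence. The Chat sequence (chr14:32465990-32466159) ends 80 bases short of the start, because those bases lie in an annotated Chat exon. The Slc18a3 sequence (chr14:32464851-32465100) is the whole 250 bases.
Chat: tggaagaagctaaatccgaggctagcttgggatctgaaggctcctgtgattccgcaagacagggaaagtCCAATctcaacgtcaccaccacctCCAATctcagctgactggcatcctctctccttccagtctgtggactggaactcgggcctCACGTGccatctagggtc
Slc18a3: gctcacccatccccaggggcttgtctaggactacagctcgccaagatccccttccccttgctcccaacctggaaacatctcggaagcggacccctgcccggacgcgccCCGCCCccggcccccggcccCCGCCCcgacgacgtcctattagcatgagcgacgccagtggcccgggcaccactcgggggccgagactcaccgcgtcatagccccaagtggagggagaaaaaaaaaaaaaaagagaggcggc

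The windows of these neighbours differed in composition. Over 250 bases, the Chat window had a GC content of 54.8% with 8 CpG dinucleotides, and the Slc18a3 window had 66.0% with 21. The median over 32851 mouse promoters of the same length was 52.4% GC and 6 CpG. This background leaves out 1 chromosome, which holds none of the 5 genes. On either strand, CCAAT matched 2 times in the Chat window and is present in 33.8% of these promoters, and CACGTG matched 1 time and is present in 6.02%. GGGCGG matched 2 times in the Slc18a3 window and is present in 32.7%. Of the 5 genes, 4 had a promoter in the RefSeq table (Chat, Slc18a3, Slc5a7 and Lhx8). The homeodomain-type motif TAATTA, present in 4.84% of promoters, was in 0 of these 4 windows, and so was TGACGTCA (1.55%). TATAAA, in 12.4% of promoters, matched 1 time, upstream of Slc5a7. The motifs share no letters within these windows, and a match is only a match of letters.

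Libraries held 17208291 to 18884403 counted reads, and replicates of an age differed from each other beyond sampling noise, with a chi-square of 3.91 to 11.6 per degree of freedom. Of the 14702 tested genes, 474 were higher (3.22%) and 535 lower (3.64%) in aged hypothalamus by edgeR's quasi-likelihood test at a Benjamini-Hochberg adjusted p under 0.05. Scaling by total counts alone turned this to 627 higher and 446 lower. Hypothalamic neuropeptide and patterning genes were detected, with 14 of 14 tested and a summed level of 1285 to 1526 CPM (reads relative to the library total, scaled by TMM factors) over the libraries. Summed over Uty, Eif2s3y, Ddx3y and Kdm5d, 4 genes of the Y chromosome, the aged libraries had 184 to 203 CPM and the young ones 1.38 to 1.88 CPM. Age and this difference in Y-linked RNA cannot be told apart in any comparison that follows.

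The 5 genes were all at higher levels in the aged libraries, and in each gene the lowest aged library lay above the highest young one. Over all tested genes, 2273 (15.5%) had that order, and 2389 (16.2%) had all aged below all young libraries. The fold differences ran from 2.13 for Slc5a7 to 4.13 for Gbx1, and the median log2 difference of the 5 was 1.31, beside -0.0035 over all tested genes. A log2 difference of at least 1 toward aged was present in 5 of 5 members and in 155 tested genes (1.05%). By edgeR's test across all genes, 2 of the 5 (Lhx8 and Gbx1) passed as higher, beside 3.22% of all tested genes. Because the genes were chosen with this contrast in view, these counts describe them and test nothing. In bulk tissue, fewer or more cells of a type and less or more RNA per cell cannot be told apart.

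**Figure D1:**
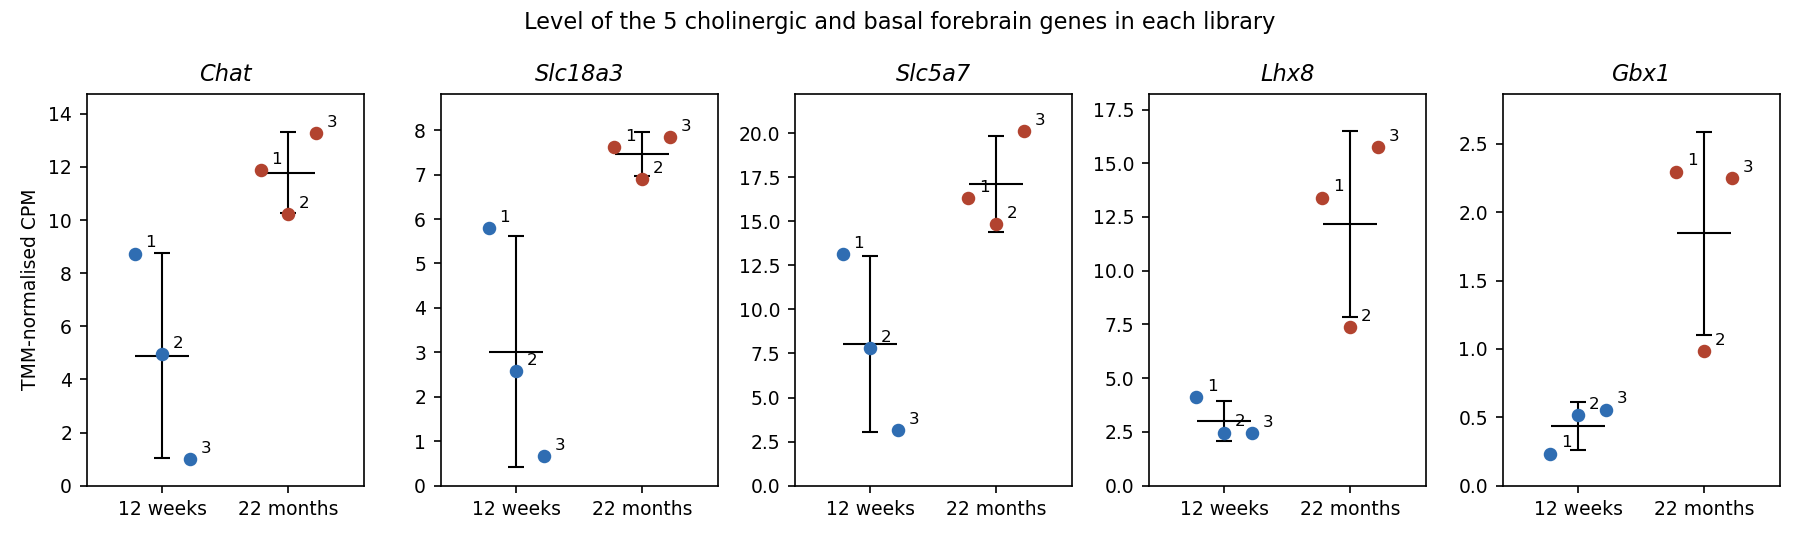
Level of each of the 5 genes in CPM (y axis, linear) in the 3 young (blue, Y1 to Y3) and 3 aged (red, A1 to A3) libraries, with bars for the mean and whiskers for the SD. Chat fell between 1.001 and 8.73 CPM in young and between 10.2 and 13.3 CPM in aged libraries, and in all 5 genes the aged points lay above the young ones.

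Chat, the synthetic enzyme, was counted with 149, 86 and 18 reads in young libraries 1, 2 and 3, and with 212, 197 and 230 reads in aged libraries 1, 2 and 3. This was 8.73, 4.94 and 1.001 CPM in young and 11.9, 10.2 and 13.3 CPM in aged hypothalamus. The aged libraries lay close together, whereas the young ones were spread widely, with young library 1 near the aged level and young library 3 far below it. The aged mean was 11.8 ± 1.52 CPM and the young mean 4.89 ± 3.87 CPM (SD, n = 3 each), a log2 difference of 1.28 ± 0.47 (SE), or 2.42-fold. The difference moved with the young libraries: it was 0.79 without young library 3 and 2.003 without young library 1. The 18 reads of young library 3 have an exact Poisson interval (95%) of 10.7 to 28.4 reads, well below the 149 of young library 1. This interval and the others cover counting error only.

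Slc18a3, the transporter that fills vesicles with acetylcholine, had 99, 45 and 12 reads in the young and 136, 133 and 136 reads in the aged libraries. Its level was 5.80, 2.59 and 0.668 CPM in young and 7.62, 6.91 and 7.85 CPM in aged libraries 1 to 3. As for Chat, young library 1 was nearest to the aged libraries and young library 3 lowest. Means were 7.46 ± 0.492 and 3.02 ± 2.60 CPM (SD, n = 3 each), and the log2 difference was 1.31 ± 0.47 (SE). Leaving out young library 3 gave 0.84, and leaving out young library 1 gave 2.21.

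Slc5a7 encodes the high-affinity choline transporter, which returns choline to the terminal and limits the rate of synthesis. It was counted with 224, 136 and 57 reads in young and 291, 286 and 349 reads in aged libraries, that is 13.1, 7.81 and 3.17 CPM against 16.3, 14.9 and 20.1 CPM. The order of the young libraries was again 1, 2, 3 from high to low, and the gap between young library 1 and the lowest aged library was small, 1.13-fold. Means were 17.1 ± 2.73 and 8.04 ± 4.98 CPM (SD, n = 3 each), with a log2 difference of 1.09 ± 0.36 (SE). This value was 0.72 without young library 3 and 1.65 without young library 1.

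Lhx8 encodes a LIM-homeodomain transcription factor required for the formation of forebrain cholinergic neurons. It had 70, 43 and 44 reads in young and 239, 142 and 273 reads in aged libraries, or 4.10, 2.47 and 2.45 CPM against 13.4, 7.37 and 15.8 CPM. Here both groups were spread, with coefficients of variation of 35.5% in aged and 31.6% in young libraries. Aged library 2 was well below aged libraries 1 and 3, and young library 1 was 1.68-fold above the lowest young library. Even so, the lowest aged library was 1.80-fold above the highest young one, more than for the 3 genes of synthesis and transport. Aged library 2 also stood apart in other genes: its 6 astrocyte markers summed to 1754 CPM, against 2516 and 2551 CPM in aged libraries 1 and 3 and 2874 to 3147 CPM in young ones, and its chi-square per degree of freedom was 11.6 and 9.77 against those libraries, which gave 3.91 against each other. The part of this in the low levels of aged library 2 was not tested, and without that library the log2 difference of Lhx8 was 2.29. The means were 12.2 ± 4.32 and 3.01 ± 0.949 CPM (SD, n = 3 each), and the log2 difference was 2.01 ± 0.30 (SE), a 4.04-fold higher level in aged hypothalamus.

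Gbx1 encodes a homeodomain factor of the gastrulation brain homeobox family, known from the developing basal forebrain and spinal cord. It had the fewest reads of the 5, with 4, 9 and 10 reads in young and 41, 19 and 39 reads in aged libraries. The levels were 0.234, 0.517 and 0.556 CPM in young and 2.30, 0.987 and 2.25 CPM in aged hypothalamus. Aged library 2 was again the lowest of its group, while among the young the order differed from that of the other genes, with library 1 lowest. The counts behind the young values are small: 4 reads have an exact Poisson interval (95%) of 1.09 to 10.2, and 10 reads one of 4.80 to 18.4, so the young libraries were not distinguishable at this depth. Means were 1.85 ± 0.744 and 0.436 ± 0.176 CPM (SD, n = 3 each), a log2 difference of 2.05 ± 0.43 (SE).

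Leaving out a single library also moved which of the genes passed. Lhx8 passed under all 16 alternatives, and Gbx1 passed with all libraries but not without any single library other than aged library 2. The number of members passing as higher was 1 without aged library 1, aged library 3, young library 2 or young library 3. It was 2 without aged library 2, and 3 without young library 1 (Lhx8, Slc18a3 and Slc5a7). The share of all tested genes passing as higher moved too. This share was 1% without aged library 1, 6.08% without aged library 2 and 0.64% without aged library 3. Without young libraries 1, 2 and 3 it was 0.957%, 2.09% and 1.22%. Under the other 10 settings tried, 2 members passed as higher, beside 2.89% to 4.26% of all tested genes. Chat passed under 0 of the 16 alternatives, and with DESeq2 its log2 difference was 1.27 with a larger SE, 0.78. The SEs of Slc18a3 and Slc5a7 were also larger with DESeq2, at 0.78 and 0.56.

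Per unit of gene length, Lhx8 had the highest level of the 5 in aged hypothalamus, at 5.33 ± 1.86 FPKM (reads scaled to gene length and library total; SD, n = 3). Chat followed at 4.24 ± 0.522 FPKM, then Slc5a7 at 3.15 ± 0.490 FPKM and Slc18a3 at 3.12 ± 0.183 FPKM. Gbx1 was lowest at 1.28 ± 0.508 FPKM. Lhx8 and Chat did not differ beyond their spread, and neither did Slc5a7 and Slc18a3. In young hypothalamus the levels were 1.71 ± 1.35 FPKM for Chat, 1.45 ± 0.889 for Slc5a7, 1.29 ± 0.401 for Lhx8 and 1.23 ± 1.055 for Slc18a3. The spreads of all 4 overlapped there, and Gbx1 again had the lowest mean, at 0.298 ± 0.121 FPKM. Within every library, young or aged, the FPKM of Slc18a3 was lower than that of Chat, at 0.609 to 0.786 of it.

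Among mice of the same age, a property that does not use the difference between the ages, the genes of synthesis and transport varied otherwise than the 2 transcription factors. Chat, Slc18a3 and Slc5a7 varied strongly among the young and little among the aged, with coefficients of variation of 79.0%, 86.0% and 62.0% in young and 12.9%, 6.59% and 16.0% in aged libraries. The highest young library was 8.72-fold above the lowest for Chat, 8.69-fold for Slc18a3 and 4.14-fold for Slc5a7. Ranked by coefficient of variation among young libraries, these genes were at places 30, 20 and 81 of 14702 from the top, where the median over all tested genes was 7.30%. The coefficients of Lhx8 and Gbx1 were 31.6% and 40.3% in young and 35.5% and 40.3% in aged libraries, the young value of Gbx1 resting on 4 to 10 reads. Young library 1 deviated from the group mean by 0.475 for Lhx8 and by -0.602 for Gbx1 (log2 CPM). With so few Gbx1 reads, the values cannot show whether these factors shared a profile among the young. All 5 genes were lowest of the aged group in aged library 2, at -0.645 for Lhx8 and -0.746 for Gbx1. Chat, Slc18a3 and Slc5a7 deviated less there, by -0.195, -0.107 and -0.19.

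**Figure D2:**
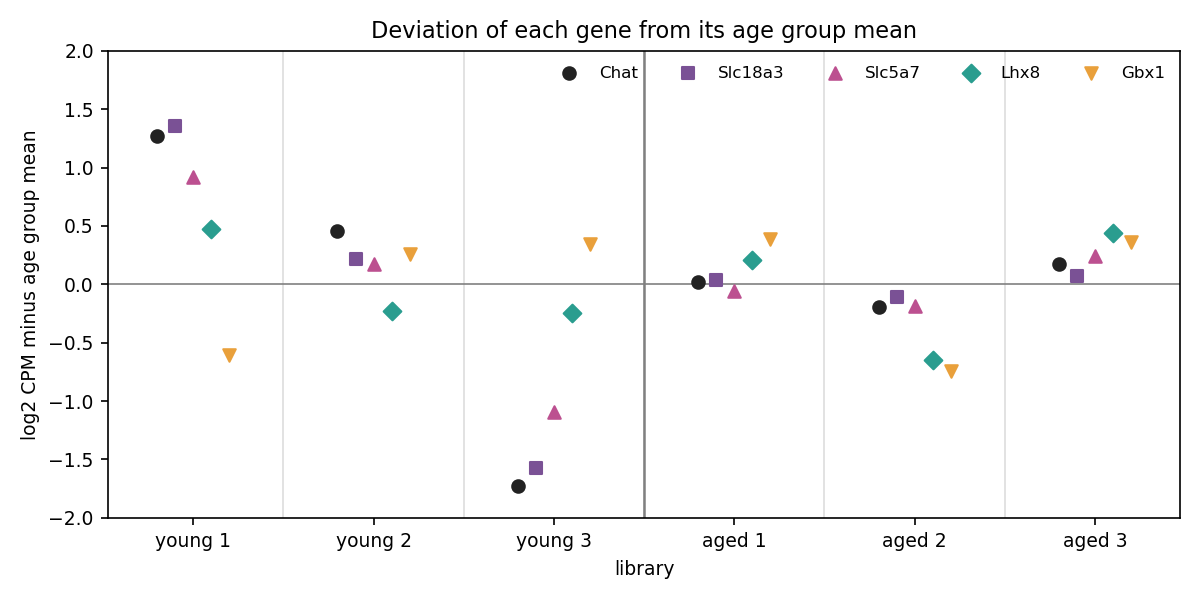
Deviation of each of the 5 genes from its own age group mean, in log2 CPM (y axis), in each young and aged library (x axis), with 1 marker per gene. Chat, Slc18a3 and Slc5a7 lie near each other, from 0.92 to 1.35 in young library 1 to between -1.09 and -1.72 in young library 3. All 5 genes are lowest of the aged group in aged library 2, Lhx8 (-0.645) and Gbx1 (-0.746) by more than the others (-0.107 to -0.195).

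Chat and Slc18a3 tracked each other more closely than any other pair among the 5. After each gene was centred on its age group means, the root mean square difference between their log2 profiles over the 6 libraries was 0.133, the smallest that Chat had with any of the other 14701 tested genes. Slc5a7 was at place 4 with 0.318. Lhx8 was at place 265 with 0.774, and Gbx1 at place 14543 with 1.18. Neither Slc5a7 (0.483, place 11839) nor Gbx1 (0.547, place 13473) lay near Lhx8. The deviations of Lhx8 itself had a root mean square of 0.406, so a gene without any deviation would lie nearer. Noisy, low-count genes raise this measure, and Gbx1 had the fewest reads of the 5.

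The same was visible in raw reads, where library scaling drops out. For each Chat read there were 0.664, 0.523 and 0.667 Slc18a3 reads in young libraries 1 to 3 and 0.642, 0.675 and 0.591 in aged libraries 1 to 3. Slc18a3 therefore made up 34.4% to 40.3% of the reads of the pair, and the exact Clopper-Pearson intervals (95%) of all 6 libraries overlapped, from 26.3% to 43.1% in young library 2 and from 22.7% to 59.4% in young library 3. Chat itself ranged from 18 to 230 reads over the same libraries.

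Slc5a7 reads per Chat read were 1.503, 1.58 and 3.17 in young and 1.37, 1.45 and 1.52 in aged libraries. The value of young library 3 stood above the other 5, in the library with the fewest Chat reads. Lhx8 reads per Chat read were 0.470, 0.500 and 2.44 in young and 1.13, 0.721 and 1.19 in aged libraries, which puts young library 3 above and young libraries 1 and 2 below all aged libraries. In young library 3, synthesis and transport genes together had 87 reads and the 2 transcription factors 54, against 472 and 74 in young library 1.

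**Figure D3:**
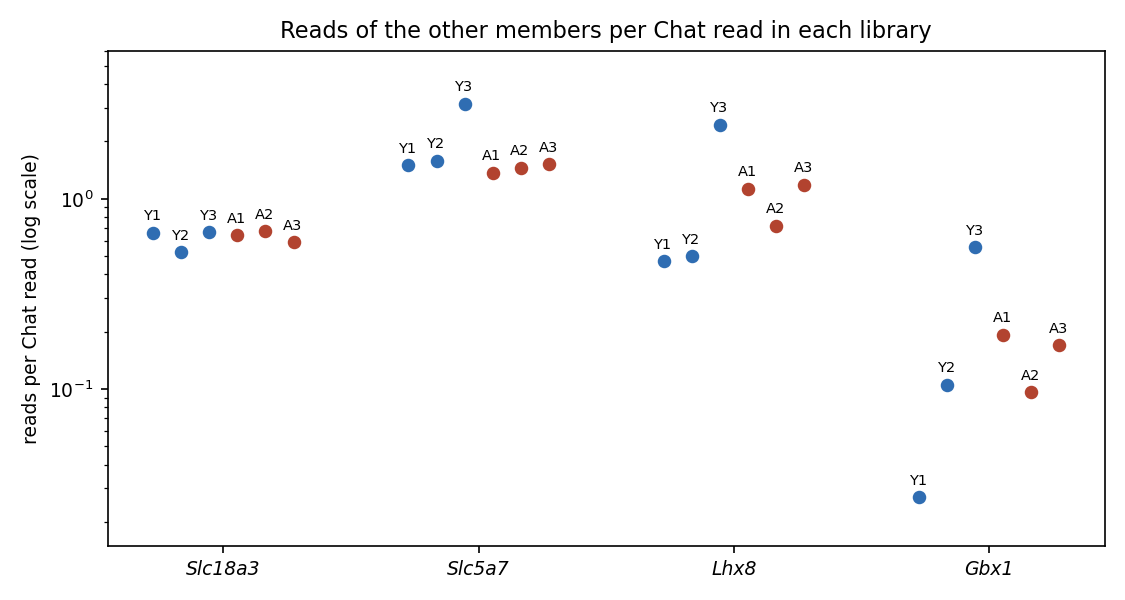
Reads of Slc18a3, Slc5a7, Lhx8 and Gbx1 per Chat read (y axis, log scale) in young (blue) and aged (red) libraries. Slc18a3 stays between 0.523 and 0.675 in all 6 libraries, whereas Slc5a7, Lhx8 and Gbx1 are highest in Y3, at 3.17, 2.44 and 0.556.

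Among all genes of sufficient level (14166 genes with a mean log2 CPM of at least 0), the nearest to the Chat profile over the 6 libraries included Slc18a3 (root mean square difference 0.133), Slc5a7 (0.376), Ngfr (0.649) and Mid1 (0.657). Ngfr encodes the neurotrophin receptor p75. With the age means removed, the nearest were Slc18a3, Mid1 (0.314), Eps8l1 (0.316), Slc5a7 and Abhd12b (0.438), and Ngfr came at place 19 among all tested genes with 0.560. The nearest to Lhx8 were other genes: Klf4 (0.176), Hspb1 (0.284), Plekhf1 (0.291), Rrad (0.295) and Fosb (0.298) over the 6 libraries, and Lpin3, Lrrc32, Hey2, Klf4 and Ppp1r3d (0.092 to 0.148) with the age means removed. Klf4, a zinc-finger transcription factor, was at 10.2, 8.22 and 6.62 CPM in young and 29.1, 17.8 and 39.5 CPM in aged libraries 1 to 3, with aged library 2 lowest of its group as for Lhx8. Such likeness over 6 libraries is a description: with so few points many genes come close, and 73 of 14701 genes, among them Slc18a3, Slc5a7, Lhx8 and Lhx6, had the library order of Chat and 49 its reverse.

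The other genes of the acetylcholine pathway did not as a whole share the pattern. In 8 lists that cover breakdown, supply, vesicles, receptors, receptor chaperones, lineage factors and trophic receptors, 75 of 77 genes were tested, and 2 were higher and 5 lower by edgeR's test, beside 3.22% and 3.64% of all tested genes. Their median log2 difference was -0.05.

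The enzymes that split acetylcholine did not follow Chat. Ache, acetylcholinesterase, was at 272, 209 and 247 CPM in young and 232, 253 and 237 CPM in aged libraries, with a log2 difference of -0.01 ± 0.09 (SE; edgeR adjusted p = 0.957). The groups overlapped, and the young spread of Chat was not seen in it. Prima1, which anchors the enzyme in the neuronal membrane, differed by -0.01 ± 0.12. Bche, butyrylcholinesterase, was at 8.79, 7.01 and 7.40 CPM in young and 4.54, 6.44 and 4.50 CPM in aged libraries. All aged lay below all young libraries, as in 16.2% of all tested genes. The log2 difference of -0.58 ± 0.17 (SE) was not past the threshold (edgeR adjusted p = 0.0719). None of the 4 breakdown and anchoring genes passed edgeR's test, with 1 at an unadjusted p under 0.05, and none passed DESeq2 or limma-voom.

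Of the genes of choline and acetyl-CoA supply, 0 of 11 tested passed edgeR's test, with 2 at an unadjusted p under 0.05 and 0 by DESeq2 or limma-voom. Acly, which makes cytosolic acetyl-CoA from citrate, differed by 0.14 ± 0.07 (log2, SE), and Pdha1, a subunit of pyruvate dehydrogenase, by 0.03 ± 0.06. Among 6 vesicular and presynaptic partners, 0 passed edgeR's test, 3 had an unadjusted p under 0.05 and 0 passed DESeq2 or limma-voom. Those with the most reads were Syt1, the calcium sensor of release (-0.12 ± 0.08), and Atp6v0a1, a subunit of the vesicle proton pump whose gradient drives the transporter encoded by Slc18a3 (-0.14 ± 0.06). Slc10a4, a vesicular protein of cholinergic and monoaminergic neurons, was chosen for mention after its values were seen. It stood at 11.6, 14.4 and 15.1 CPM in young and 10.8, 9.40 and 10.8 CPM in aged libraries. All aged lay below all young libraries, an order that 16.2% of all tested genes had. The log2 difference of -0.40 ± 0.12 did not pass (edgeR adjusted p = 0.0781).

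**Figure D4:**
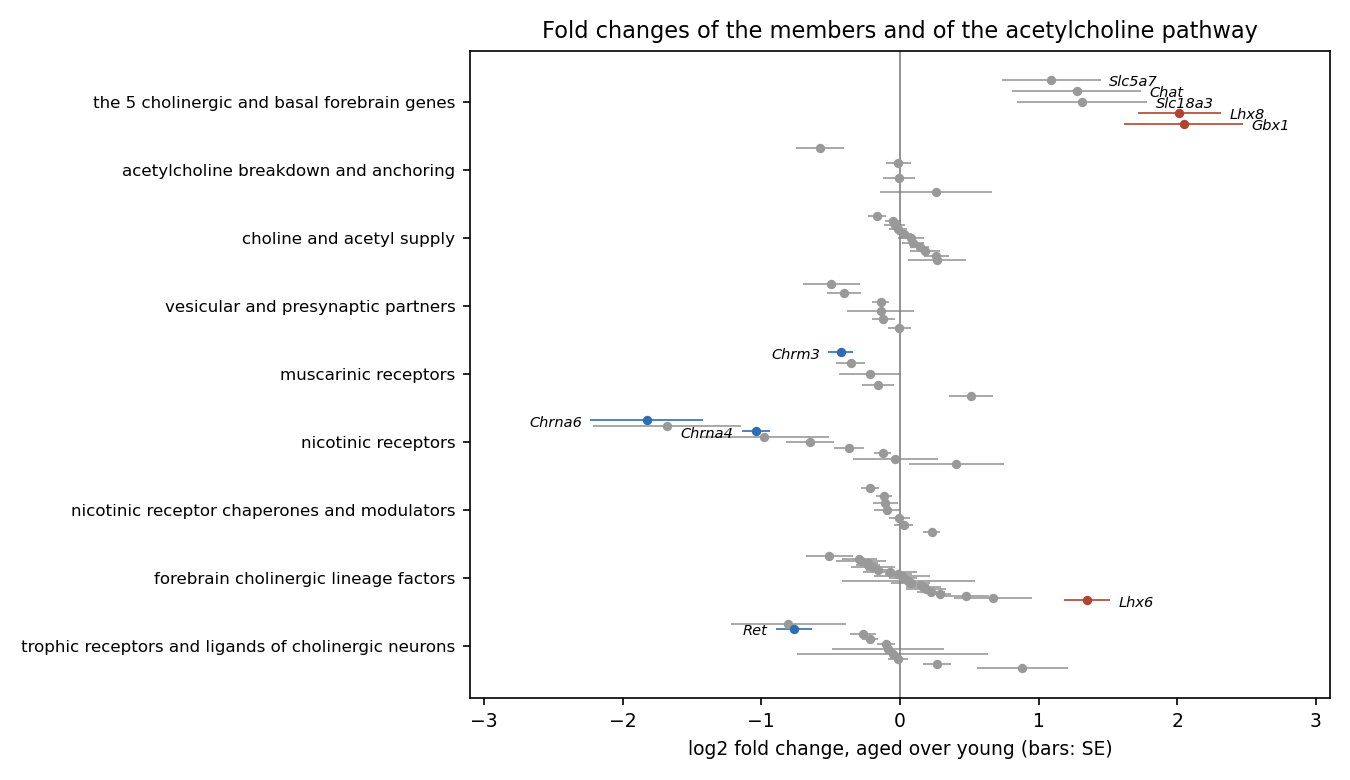
Log2 difference, aged over young, with its SE (x axis) for the 5 genes and for the reported genes of the 8 pathway lists (y axis). Red marks genes that passed edgeR's test as higher, blue as lower and grey those that did not pass: Chrna4 lies at -1.04, Chrna6 at -1.83 and Lhx6 at 1.35, with Ache at -0.01.

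The receptors for acetylcholine that passed the test were all lower in aged libraries. Among the 9 nicotinic subunits, 2 fell and 0 rose, beside 3.64% and 3.22% of all tested genes. The median log2 difference of the 9 was -0.65. In 5 of the 9 all aged lay below all young libraries, beside 16.2% of all tested genes. Chrna4, which with Chrnb2 forms the main high-affinity nicotinic receptor of the brain, was at 87.2, 87.2 and 67.1 CPM in young and 40.9, 39.3 and 37.4 CPM in aged libraries. These groups were far apart, 80.5 ± 11.6 against 39.2 ± 1.74 CPM (SD, n = 3 each), with a log2 difference of -1.04 ± 0.10 (SE; edgeR adjusted p = 0.0016), and the gene passed under all 16 alternative settings. Its partner Chrnb2 differed by -0.12 ± 0.06 and did not pass. Chrna6, a subunit found mainly on catecholaminergic neurons, was at 6.39, 15.6 and 19.3 CPM in young and 3.53, 5.76 and 2.25 CPM in aged libraries, with a log2 difference of -1.83 ± 0.41 (SE; edgeR adjusted p = 0.0308). It passed in 9 of 16 alternatives and did not pass without aged library 1, aged library 3, young library 2 or young library 3, nor with limma-voom or limma-trend. Chrna7, the subunit of homomeric receptors, differed by -0.37 ± 0.11 and did not pass.

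Of the 5 muscarinic receptors, 1 fell and 0 rose, beside 3.64% and 3.22% of all tested genes. Chrm3, a Gq-coupled receptor, was at 39.8, 41.0 and 38.0 CPM in young and 28.3, 33.2 and 26.8 CPM in aged libraries. It had all aged below all young libraries, as had 16.2% of all tested genes. Its log2 difference was -0.43 ± 0.09 (SE; edgeR adjusted p = 0.0273), and it missed the threshold without any single library other than aged library 2 (adjusted p = 0.0641 to 0.115). Chrm2, an inhibitory autoreceptor on cholinergic terminals, differed by -0.16 and overlapped between the ages. Chrm4, an inhibitory receptor abundant in striatum that was chosen for mention after its values were seen, lay the other way. It had all aged above all young libraries, as had 15.5% of all tested genes. Its log2 difference of 0.51 ± 0.16 did not pass (edgeR adjusted p = 0.081). Among 7 chaperones and modulators of nicotinic receptors, 0 passed edgeR's test, with 2 at an unadjusted p under 0.05, 1 by DESeq2 and 0 by limma-voom. Lynx1, which dampens nicotinic receptors at the membrane, differed by -0.22 ± 0.07. Ly6h, a related protein, differed by 0.23 ± 0.06 and lay at the threshold (edgeR adjusted p = 0.0502), passing in 9 of 16 alternatives.

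Of 22 lineage factors of the ventral forebrain, 1 rose and 1 fell, beside 3.22% and 3.64% of all tested genes. Lhx6, a LIM-homeodomain factor of the medial ganglionic eminence and close relative of Lhx8, was at 13.1, 12.3 and 9.90 CPM in young and 33.4, 22.7 and 34.2 CPM in aged libraries. It had the library order of Lhx8, with aged library 2 lowest of its group. The means were 30.1 ± 6.42 against 11.8 ± 1.68 CPM (SD, n = 3 each), with a log2 difference of 1.35 ± 0.17 (SE; edgeR adjusted p = 0.00434), and the gene passed under all 16 alternatives. With the age means removed, Lhx6 and Lhx8 differed by a root mean square of 0.230, which put Lhx6 at place 86 of 14701 genes in nearness to Lhx8. Lhx8 and Chat differed by 0.774, but the deviations of Chat were themselves larger, with a root mean square of 0.899 against 0.406 for Lhx8.

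Nkx2-1, which specifies the medial ganglionic eminence and also parts of the hypothalamus, was chosen for mention after its values were seen. It was at 23.5, 19.1 and 33.2 CPM in young and 34.3, 36.3 and 35.2 CPM in aged libraries, with a log2 difference of 0.48 ± 0.16 that did not pass (edgeR adjusted p = 0.102). Isl1, a LIM-homeodomain factor of striatal cholinergic interneurons and of the arcuate nucleus, likewise chosen afterwards, differed by 0.29 ± 0.08 and did not pass.

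Among 11 trophic receptors and ligands, 1 rose and 1 fell, beside 3.22% and 3.64% of all tested genes. Ngfr, chosen for mention because it was among the genes nearest to Chat, was at 22.0, 9.36 and 7.12 CPM in young and 19.9, 24.3 and 26.4 CPM in aged libraries. Young library 1 lay within the aged range, and the log2 difference of 0.88 ± 0.33 did not pass (edgeR adjusted p = 0.127). Without young library 1 it was 1.52 and passed (adjusted p = 0.00539), and without young library 3 it was 0.60 and did not. Ret, the receptor tyrosine kinase for glial-derived neurotrophic factors, which dopamine neurons carry, went the other way. It fell from 66.3, 88.9 and 89.5 CPM in young to 48.0, 54.6 and 41.5 CPM in aged libraries (log2 difference -0.76 ± 0.13 SE; edgeR adjusted p = 0.0138). It did not pass without aged library 1 (adjusted p = 0.0551) or aged library 3 (0.0635). Ntrk2, the receptor for brain-derived neurotrophic factor, differed by -0.26 ± 0.09 and Sort1, which encodes the pro-neurotrophin receptor sortilin, by -0.22 ± 0.06, and neither passed.

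Markers of brain regions that border the hypothalamus also differed between the ages and among the young libraries. The list of midbrain dopamine markers summed to 228, 370.5 and 454 CPM in young libraries 1 to 3 and to 165 to 215 CPM in aged libraries. Of its 6 tested genes 3 fell, beside 3.64% of all tested genes. Slc6a3, the dopamine transporter, was at 22.6, 89.4 and 113 CPM in young and 12.7, 19.2 and 4.27 CPM in aged libraries (log2 difference -2.63 ± 0.58 SE; edgeR adjusted p = 0.0301), and did not pass without aged library 1, aged library 3, young library 2 or young library 3 (adjusted p = 0.0677 to 0.0987), nor with limma-voom or limma-trend. The order of the 6 libraries by Slc6a3 was exactly the reverse of their order by Chat, so that the young library with the most Chat reads had the least Slc6a3, and the aged library with the most Chat reads had the least Slc6a3 of all. Chrna6, Ret, En1 and Aldh1a1 had this reversed order too. This comparison of orders was chosen after the values were seen, and it is given without a test since 49 of 14701 genes had the reversed order.

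**Figure D5:**
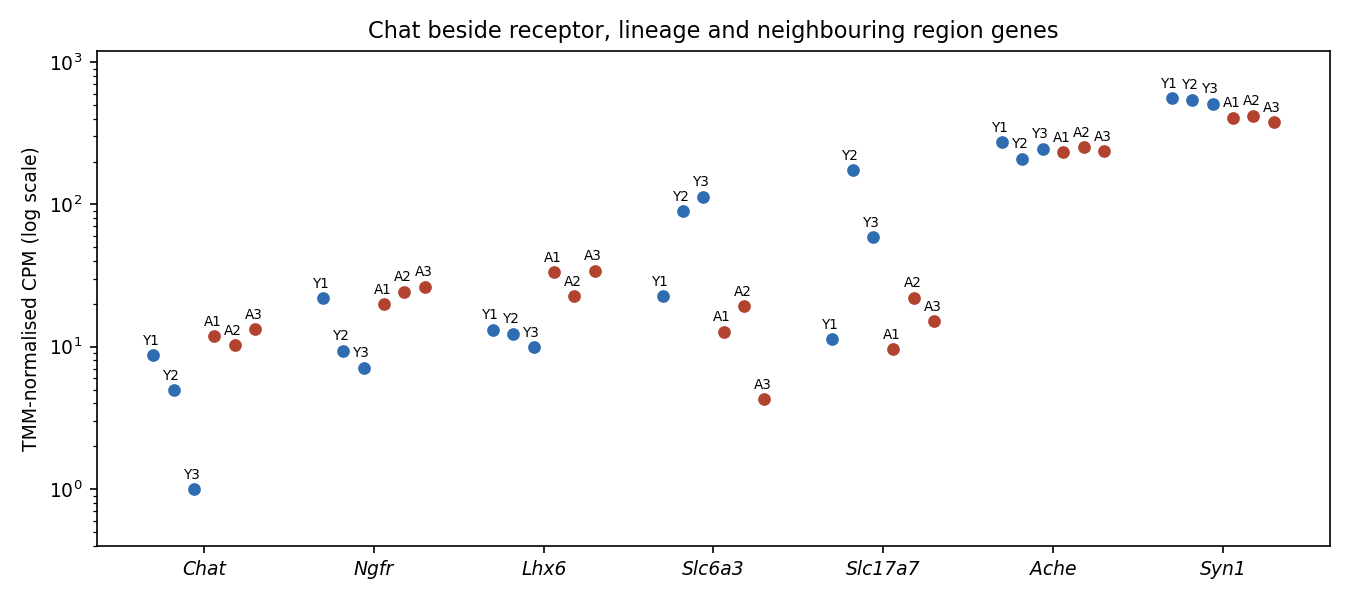
CPM (y axis, log scale) of Chat, Ngfr, Lhx6, Slc6a3, Slc17a7, Ache and Syn1 (x axis) in young (blue, Y1 to Y3) and aged (red, A1 to A3) libraries. Slc6a3 runs from 4.27 CPM in A3 to 113 CPM in Y3, in the reverse order of Chat, and Lhx6 runs from 9.90 to 34.2 CPM in the order of Chat.

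Markers of cortex, hippocampus and amygdala summed to 169 to 371 CPM in young and 129.8 to 149 CPM in aged libraries, with 2 of 8 tested genes lower and 0 higher, beside 3.64% and 3.22% of all tested genes. These were Neurod6 (log2 difference -2.11; edgeR adjusted p = 0.0472), which missed the threshold in 8 of 16 alternatives, among them limma-voom and every single-library omission but that of young library 1, and Cux2 (-0.42; adjusted p = 0.0133), which missed it in 3, without aged library 1, aged library 3 or young library 1. Slc17a7, the vesicular glutamate transporter of these regions, was at 11.2, 173 and 58.5 CPM in young and 9.59, 22.1 and 15.1 CPM in aged libraries and did not pass (edgeR adjusted p = 0.0832). Its young order differed from that of Chat, with library 2 highest. Thalamus and habenula markers summed to 377 to 519 CPM in young and 311 to 349.7 CPM in aged libraries. Beside 3.64% of all tested genes, 2 of 9 were lower. These were Tcf7l2 (log2 difference -1.18; edgeR adjusted p = 0.0464), which missed the threshold in 10 of 16 alternatives, among them DESeq2, limma-voom and every single-library omission but that of young library 3, and Plekhg1 (-1.004; adjusted p = 0.0305), which missed it in 6, among them the omission of any aged library or of young library 1.

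Some markers of regions in which forebrain cholinergic neurons lie, or which adjoin them, were higher in aged libraries, but the summed levels of all 3 lists overlapped between the ages. All aged lay above all young libraries in 2 of 10 striatal, 5 of 9 pallidal and septal and 4 of 8 preoptic genes. Over all tested genes 15.5% had that order. In each of the 3 lists, 0 genes had all aged below all young libraries. Striatal markers summed to 433 to 469 CPM in young and 453 to 609 CPM in aged libraries. Beside 3.22% of all tested genes, 2 of the 10 striatal genes were higher. These were Gpr6, a receptor of striatopallidal neurons, with a log2 difference of 1.35 (edgeR adjusted p = 0.00748), and the enkephalin precursor gene Penk, with 0.54 (adjusted p = 0.0392). Gpr6 passed without each single library, and Penk did not without aged library 1, aged library 3, young library 1 or young library 2. Markers of globus pallidus and septum summed to 534 to 589.6 CPM in young and 560.5 to 686 CPM in aged libraries, with 2 of 9 higher (Lhx6, and Penk, which both lists hold). Preoptic markers summed to 121 to 173 CPM in young and 169.8 to 176.5 CPM in aged libraries, with 1 of 8 higher, beside 3.22% of all tested genes. This was the neurotensin gene Nts (log2 difference 0.66, edgeR adjusted p = 0.0251), which like Penk did not pass without any of those 4 libraries. Other members lay lower without passing, among them Npas1 (log2 difference -0.40), Kcnc2 (-0.29), Drd2 (-0.28) and Esr1 (-0.48), chosen for mention after their values were seen.

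Neuronal markers in general summed to 6486 to 6999 CPM in young and 6157 to 6470 CPM in aged libraries, with 1 of 11 lower, beside 3.64% of all tested genes. That gene was Syn1, a synaptic vesicle protein gene, with a log2 difference of -0.42 (edgeR adjusted p = 0.00844, and 0.0544 without aged library 3). Of 8 markers of brainstem and cranial motor neurons, the other large cholinergic class, 2 could be tested (Prph, with a log2 difference of 0.48, and Calca, with 0.47) and 0 passed edgeR's test, DESeq2 or limma-voom, with 2 at an unadjusted p under 0.05 by edgeR. Both were higher in all aged than in all young libraries, an order that 15.5% of all tested genes had. Phox2a, too low to test, had 0, 1 and 0 reads in young and 4, 9 and 10 reads in aged libraries, and Isl2 had 0 to 4 reads per library. The part that the amount of each neighbouring region in the dissected tissue has in the levels of Chat, Slc18a3, Slc5a7, Lhx8 and Gbx1 was not tested.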

How the data were processed

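Polyadenylated RNA of hypothalamus from 3 aged and 3 young mice was sequenced with a stranded kit, per the labels' protocols. The deposited values are raw read counts for each gene in whole numbers, and the authors' second table holds FPKM, which equals the counts over gene length and library total for 18228 of 18228 genes (relative tolerance 1e-06). The submitters' processing notes name Trimmomatic, HISAT2, Cufflinks, HTSeq, DESeq and the build GRCm39. For the annotation release, the strand setting and the handling of shared reads, a setting is not given in the sources used here. Chat and the antisense gene Gm2990, which overlaps it in the annotation, may therefore have shared reads.

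Counts were filtered with filterByExpr (minimum count 10, minimum total 15), scaled with TMM and tested with the quasi-likelihood test of edgeR 4.0.16 in R 4.3.3, Benjamini-Hochberg threshold 0.05, no covariate. The biological coefficient of variation was 8.52%. Tested genes held 99.9% of reads. SEs follow from the test statistic, and profiles used log2 CPM with a prior count of 2. Each library is a separate sample, and no label names shared litters or days. The p-values set the difference between the age groups against the variation between these libraries. The procedure was tested on simulated data. Alternatives were DESeq2 1.42.0, limma-voom and limma-trend (limma 3.58.1), other scalings and filters, a replicate block, and leaving out each library.

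Members and lists were chosen with earlier results of these data known. Named genes were all members; in pathway lists, passing genes and up to 2 abundant others; in marker lists, abundant and passing genes; and the 5 nearest to Chat and to Lhx8. Marker genes that the rule takes and that no result here turns on are not described. Values of some genes named by this rule are left out and not reported here.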

Additional observations from a re-analysis of the deposited data

How the results depend on the processing

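All 5 genes were higher in aged libraries under all 16 alternatives. Without single libraries, genes called numbered 95 to 901 higher and 55 to 732 lower, and members called 1 to 3. Log2 differences then ran from 0.79 to 2.003 for Chat, 0.84 to 2.21 for Slc18a3, 0.72 to 1.65 for Slc5a7, 1.79 to 2.31 for Lhx8 and 1.76 to 2.37 for Gbx1, and the median of the 5 from 0.84 to 2.003. Genes called in the lists ran from 0 to 1 for breakdown and for receptor chaperones, 0 to 3 for muscarinic receptors and for trophic receptors, and 1 to 4 for nicotinic receptors and for lineage factors. Fewer samples enter these fits. With limma-trend, 293 genes were lower on log2(FPKM + 1) and 303 on log2(FPKM + 0.1). On log2(FPKM + 1), where the added 1 shrinks low genes, Lhx8 stood at 1.43 and Gbx1 at 0.79. Nicotinic receptors had 1 call with limma-voom and both limma-trend fits. Receptor chaperones had 1 call with DESeq2, RLE factors, total counts alone, no filter, a CPM of at least 1 in 3 libraries, both limma-trend fits and the replicate block. Lineage factors had 1 call with total counts alone and with the replicate block. The cause of these changes in calls was not tested. Same-numbered aged and young libraries deviated together with correlations of 0.095, 0.037 and -0.138, and differently numbered ones with -0.116 to 0.089. The labels do not say whether the numbers pair the mice, and so few libraries cannot settle it. With the replicate block, 523 genes were higher and 667 lower, 2 members were called, and Chat stood at 1.43, Slc18a3 at 1.47, Slc5a7 at 1.19, Lhx8 at 1.99 and Gbx1 at 2.03. Depth limits Gbx1 most, with 4 to 10 reads per young library.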
